A study of Mus musculus with 18 samples.

Results

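These results cover the open-chromatin regions at the ends of protein-coding genes in CD24high lung epithelial cells that were listed in 1 treatment arm alone. The members were chosen from the peak lists themselves: a G9ai-only region had a peak in both lists of mice given a G9a inhibitor (G9ai) and none in the vehicle list, and a vehicle-only region had a peak in the vehicle list and in neither G9ai list. Peaks of the 3 lists that overlapped by at least 1 bp were merged into 15687 regions, and a region was kept when the nearer end of a gene lay at most 1000 bp away, using the protein-coding genes of RefSeq assembly GRCm38.p6, the build called mm10. This gave 2486 members, 613 of the 2675 G9ai-only regions and 1873 of the 12880 vehicle-only regions. The sides are therefore set by the lists and are given as a description, with no test. The 10 lists of the whole series merged into 33312 regions.

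The assay was ATAC-seq, which tags accessible DNA with a transposase, and the cells were epithelial cells sorted from the lungs of c57/bl6 mice 6 to 12 weeks old. All sorted cells lacked CD31 and CD45, which mark endothelial cells and leukocytes, and carried Epcam, an epithelial surface protein, and Sca-1; CD24 divided them into CD24high, CD24low and CD24neg populations. The groups used here are CD24high G9ai (replicates 2 and 3) and CD24high vehicle (replicate 3), with CD24low G9ai, CD24low vehicle, CD24neg G9ai and CD24neg vehicle for comparison; the design named 3 mice per arm and 10000 cells per library. The labels name neither the inhibitor compound nor its dose or duration, and no other treatment or allele is stated for either arm. Lists of 10 of the 18 samples were analysed, and the other 8 were not analysed here.

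The CD24high lists held 2798 and 2817 peaks with G9ai, against 12985 peaks with vehicle. The depth of the libraries is unknown. Peak numbering ran far past the listed peaks, which made up 3.03% and 3.69% of the highest peak number with G9ai and 13.2% with vehicle, so a gene absent from the lists may still have an open promoter with and without the inhibitor. Each peak carries the authors' score, of unstated scale, which is used here only to rank peaks within a list; a percentile of 100 is the highest score of that list. Only 105 merged regions had peaks in both arms, and 27 had a peak in 1 G9ai list alone; 20 and 18 of these lay at gene ends. The CD24high vehicle arm had 1 list, so no difference between the arms could be tested over replicates, and lists already chosen for 1 arm understate the spread between mice. Peak lists hold no expression or marker level, so the CD24high label could not be checked against its markers. No G9ai-only or vehicle-only region lay at an end of Cd24a, Epcam, Ly6a (the gene of Sca-1), Pecam1 (CD31) or Ptprc (CD45), of the G9a genes Ehmt2 and Ehmt1, or of Foxj1, the ciliary master regulator.

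G9a, encoded by Ehmt2, acts together with its relative GLP (Ehmt1) to methylate histone H3 at lysine 9, a mark of silent chromatin. Promoters lie at gene starts, and many are CpG islands, stretches rich in the CpG dinucleotide that tend to be open in most cell types, whereas genes of a single cell type often have promoters with few CpG. CD24 is high on multiciliated cells of the airway and present on secretory cells, and the alveolar epithelium is built of flat type 1 cells and surfactant-producing type 2 cells.

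The promoter windows below belong to members that the results turn on: regions near the top of each list by score, and regions at genes of secretory, multiciliated and alveolar type 2 cells. Each is the RefSeq window of GRCm38.p6 with 250 bases before and 50 bases after an annotated gene start, 5′ to 3′ along the gene. Capitals mark matches, on either strand, to any of 11 motifs. The letters searched were GGGCGG for the SP and KLF factors, CCAAT for NF-Y, CCGGAAG for the ETS factors, GCGCATGCG for NRF1, AAGATGGCG for YY1 and TGACGTCA for the CRE, the cyclic-AMP response element. The others were CACGTG for the E-box of MYC and USF factors, TGANTCA for AP-1, TATAAA for the TATA box, TGTTTAC for the FOX factors and GTTGCNATG for the RFX factors of ciliated cells. No motif contains another. The first 5 windows were overlapped by a G9ai-only region.
Fyn, chr10:39369549-39369848, plus strand: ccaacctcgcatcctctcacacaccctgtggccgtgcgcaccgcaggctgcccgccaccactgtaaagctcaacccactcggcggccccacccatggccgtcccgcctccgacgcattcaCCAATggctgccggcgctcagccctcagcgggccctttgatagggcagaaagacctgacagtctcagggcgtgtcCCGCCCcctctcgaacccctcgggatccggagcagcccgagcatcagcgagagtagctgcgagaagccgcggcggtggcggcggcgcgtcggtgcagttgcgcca
Timm17b, chrX:7899086-7899385, plus strand: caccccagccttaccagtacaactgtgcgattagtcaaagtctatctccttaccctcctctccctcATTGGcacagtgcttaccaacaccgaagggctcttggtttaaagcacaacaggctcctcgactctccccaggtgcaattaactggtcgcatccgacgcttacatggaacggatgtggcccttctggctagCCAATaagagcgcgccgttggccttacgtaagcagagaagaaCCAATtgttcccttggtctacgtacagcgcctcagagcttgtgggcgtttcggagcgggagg
Supt4a, chr11:87737301-87737600, plus strand: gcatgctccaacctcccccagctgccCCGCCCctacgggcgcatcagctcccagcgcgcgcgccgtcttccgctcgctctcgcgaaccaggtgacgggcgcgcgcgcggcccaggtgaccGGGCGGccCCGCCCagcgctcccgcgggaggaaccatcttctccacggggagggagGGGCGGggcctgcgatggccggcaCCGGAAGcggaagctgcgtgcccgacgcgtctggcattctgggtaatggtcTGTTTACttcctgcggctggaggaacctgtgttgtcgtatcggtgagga
Lpcat1, chr13:73466981-73467280, plus strand: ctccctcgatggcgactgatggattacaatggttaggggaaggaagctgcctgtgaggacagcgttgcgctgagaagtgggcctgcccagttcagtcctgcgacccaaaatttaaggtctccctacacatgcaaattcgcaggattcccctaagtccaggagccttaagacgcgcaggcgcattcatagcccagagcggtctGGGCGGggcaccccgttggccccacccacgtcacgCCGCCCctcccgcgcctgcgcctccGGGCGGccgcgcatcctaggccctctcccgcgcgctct
Cxcl15, chr5:90794284-90794583, plus strand: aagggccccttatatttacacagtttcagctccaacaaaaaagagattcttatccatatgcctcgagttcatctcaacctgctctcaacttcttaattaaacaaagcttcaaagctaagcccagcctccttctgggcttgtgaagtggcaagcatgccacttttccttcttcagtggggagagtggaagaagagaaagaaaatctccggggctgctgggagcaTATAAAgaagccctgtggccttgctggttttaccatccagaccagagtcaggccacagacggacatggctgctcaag
The other 5 windows were overlapped by a vehicle-only region.
Capsl, chr15:9435778-9436077, plus strand: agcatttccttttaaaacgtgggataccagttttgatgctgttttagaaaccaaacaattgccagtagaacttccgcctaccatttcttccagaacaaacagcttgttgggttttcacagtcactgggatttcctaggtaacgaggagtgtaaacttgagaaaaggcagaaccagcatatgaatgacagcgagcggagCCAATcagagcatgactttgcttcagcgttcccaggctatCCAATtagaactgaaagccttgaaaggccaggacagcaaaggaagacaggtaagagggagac
Ropn1l, chr15:31453640-31453939, minus strand: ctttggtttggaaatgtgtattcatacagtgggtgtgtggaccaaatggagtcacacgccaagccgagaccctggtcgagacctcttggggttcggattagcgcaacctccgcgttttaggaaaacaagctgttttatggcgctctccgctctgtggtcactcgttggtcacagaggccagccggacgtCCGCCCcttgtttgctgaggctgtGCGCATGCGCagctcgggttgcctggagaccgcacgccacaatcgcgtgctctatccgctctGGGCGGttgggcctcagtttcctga
Abce1, chr8:79711691-79711990, minus strand: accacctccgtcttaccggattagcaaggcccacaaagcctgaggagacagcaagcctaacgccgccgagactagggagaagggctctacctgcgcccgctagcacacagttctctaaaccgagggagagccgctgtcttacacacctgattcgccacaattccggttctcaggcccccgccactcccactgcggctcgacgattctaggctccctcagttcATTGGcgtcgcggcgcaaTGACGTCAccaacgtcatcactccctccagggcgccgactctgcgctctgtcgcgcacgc
Cyp2f2, chr7:27119705-27120004, plus strand: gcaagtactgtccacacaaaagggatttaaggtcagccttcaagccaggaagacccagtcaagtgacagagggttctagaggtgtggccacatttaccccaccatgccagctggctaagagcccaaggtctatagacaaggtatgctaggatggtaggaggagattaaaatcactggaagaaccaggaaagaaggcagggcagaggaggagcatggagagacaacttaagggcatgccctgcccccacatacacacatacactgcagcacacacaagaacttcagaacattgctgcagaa
Pigr, chr1:130826434-130826733, plus strand: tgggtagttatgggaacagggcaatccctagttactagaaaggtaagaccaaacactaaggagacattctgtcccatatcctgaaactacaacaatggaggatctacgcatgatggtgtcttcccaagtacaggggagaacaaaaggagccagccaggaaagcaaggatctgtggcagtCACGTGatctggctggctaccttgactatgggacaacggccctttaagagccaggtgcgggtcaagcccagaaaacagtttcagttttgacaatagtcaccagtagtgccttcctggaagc
The G9ai-only regions covered all 300 bases of the Fyn and Supt4a windows, bases 80 to 300 of Timm17b, bases 84 to 300 of Lpcat1 and bases 1 to 199 of Cxcl15. The vehicle-only regions covered all 300 bases of the Capsl window, bases 111 to 300 of Ropn1l, bases 58 to 300 of Abce1, bases 143 to 300 of Cyp2f2 and bases 156 to 300 of Pigr. Supt4a had 4 SP matches, 1 ETS match and 1 FOX match, Lpcat1 had 3 SP matches and Timm17b had 3 NF-Y matches, whereas Cxcl15 had a single TATA match. On the vehicle side Ropn1l had 2 overlapping NRF1 matches, 1 on each strand, and 2 SP matches, Abce1 had a CRE match and an NF-Y match, Capsl had 2 NF-Y matches, Pigr had 1 E-box match and Cyp2f2 had none. The ratio of observed to expected CpG on the G9ai side was 0.891 in Fyn, 0.733 in Timm17b, 0.979 in Supt4a, 0.823 in Lpcat1 and 0.177 in Cxcl15. On the vehicle side it was 0.991 in Abce1, 0.874 in Ropn1l, 0.397 in Capsl, 0.224 in Pigr and 0 in Cyp2f2. A match is a description of the letters and not evidence that a factor binds there.

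Gene ends held a larger share of the G9ai lists than of the vehicle list in CD24high cells. Among merged regions, 22.9% of the G9ai-only regions lay at gene ends (exact 95% interval 21.3% to 24.6%, 613 of 2675), against 14.5% of the vehicle-only regions (13.9% to 15.2%, 1873 of 12880). By library, the share of peaks was 22.8% and 22.9% in G9ai replicates 2 and 3, against 14.6% in vehicle replicate 3. The intervals cover counting error only. In CD24neg cells the merged share was 18.2% of G9ai-only regions, against 15.2% of vehicle-only regions. In CD24low cells the order was reversed, with 16.9% of G9ai-only regions, against 24.6% of vehicle-only regions. The higher share went with the shorter lists in all 3 populations, and the part of list length was not tested. When the CD24high vehicle list was cut to its 2798 highest-scoring peaks, the length of the shorter G9ai list, 15.1% of vehicle-only regions lay at gene ends.

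**Figure D1:**
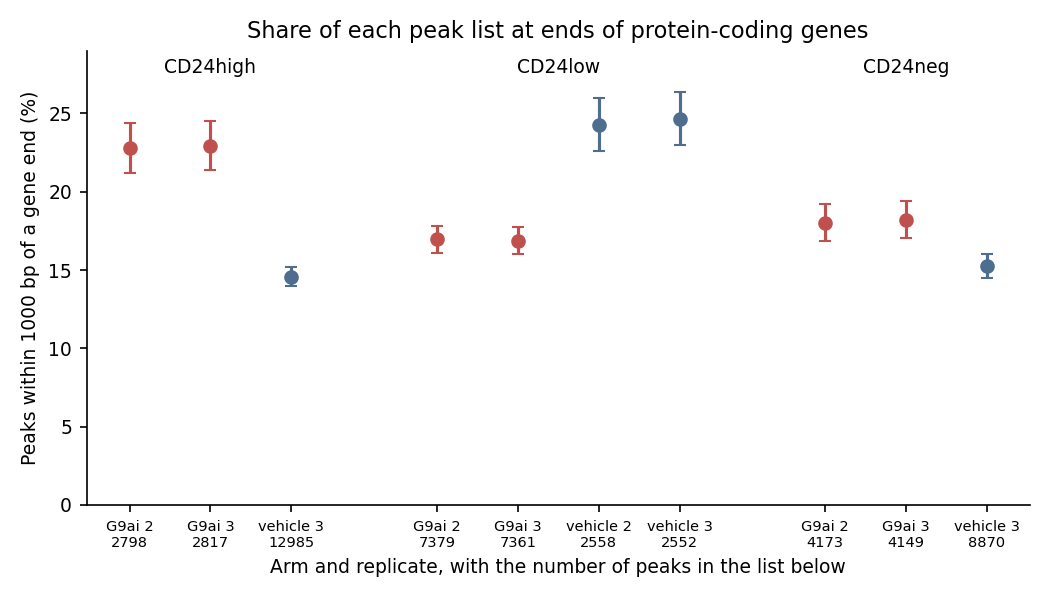
Percent of peaks within 1000 bp of an end of a protein-coding gene (y axis) in each of the 10 lists (x axis, with list length), G9ai in red and vehicle in blue; points are single libraries and bars are exact 95% intervals for counting error. The 2 CD24high G9ai lists sit at 22.8% and 22.9%, above the vehicle list at 14.6%, while in CD24low cells the G9ai lists sit below the vehicle lists.

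Most members lay at gene starts on both sides. A strand was known for 17492 of the 21900 genes, from RefSeq's promoter windows, and the gene start was taken as the end of the gene span that this strand sets; exons and untranslated regions were not used here. Of 469 G9ai-only regions at an oriented gene, 398 (84.9%) lay nearer its start and 71 nearer its end. Of 1503 vehicle-only regions, 1198 (79.7%) lay nearer the start and 305 nearer the end. Regions that overlapped the gene end itself made up 24.1% of the G9ai-only members, against 20.8% of the vehicle-only members, and the median distance was 253 bp on the G9ai side and 292 bp on the vehicle side. Merged regions had a median width of 186 bp on the G9ai side and 144 bp on the vehicle side; a G9ai-only region is a union of peaks from 2 lists, and a vehicle-only region comes from 1.

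Around gene starts the G9ai-only regions lay further into the gene. The midpoint was upstream of the start in 132 of 428 pairs of a G9ai-only region and a gene (30.8%), against 536 of 1292 vehicle-only pairs (41.5%). The median midpoint lay 160 bp downstream of the start on the G9ai side and 66.2 bp downstream on the vehicle side. Both sides were densest within 100 bp of the start. The first 100 bp downstream held 60 G9ai-only pairs, and the 100 bp upstream held 37, while 138 vehicle-only pairs lay downstream and 181 upstream. At the other end of genes no step of 100 bp held more than 8.60% of G9ai-only pairs or 7.18% of vehicle-only pairs. With the cut vehicle list 44.3% of vehicle-only midpoints lay upstream, against 30.7% of G9ai-only midpoints.

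**Figure D2:**
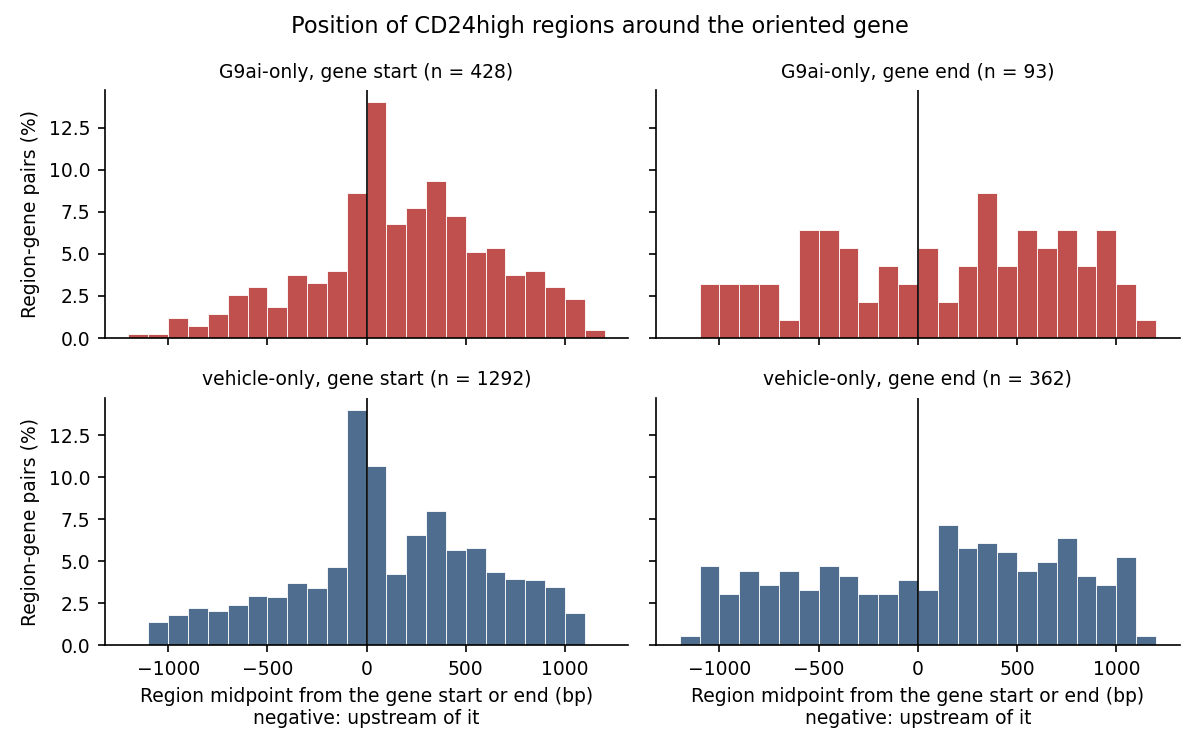
Distance of the region midpoint from the start (left) or end (right) of the oriented gene in steps of 100 bp (x axis, negative upstream), as a percent of region-gene pairs (y axis), for G9ai-only regions (top) and vehicle-only regions (bottom). At gene starts, the highest bar is just downstream for G9ai-only regions (60 of 428 pairs) and just upstream for vehicle-only regions (181 of 1292 pairs).

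Promoter windows overlapped by members were rich in CpG on the G9ai side. Members overlapped 209 RefSeq promoter windows of 192 genes on the G9ai side and 506 windows of 480 genes on the vehicle side, out of 21263 windows of 17492 genes. The median ratio of observed to expected CpG was 0.818 on the G9ai side and 0.692 on the vehicle side, against 0.567 over all windows. A ratio of at least 0.6 was found in 80.4% of G9ai-side windows (exact 95% interval 74.3% to 85.5%), against 56.9% of vehicle-side windows (52.5% to 61.3%) and 47.7% of all windows. Median GC content was 66.0% on the G9ai side, 60.0% on the vehicle side and 56.3% over all windows. Windows of neighbouring starts, of the same gene or of neighbouring genes, can overlap, so they are not independent.

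The gap in CpG was as large with lists of equal length, and the arms were closer together in the other populations. With the vehicle list cut to the G9ai length, 80.9% of G9ai-side windows and 56.6% of vehicle-side windows had a ratio of at least 0.6. In CD24low cells the shares were 68.7% on the G9ai side (exact 95% interval 64.1% to 73.1%) and 71.1% on the vehicle side (65.3% to 76.4%). In CD24neg cells they were 66.2% on the G9ai side (60.3% to 71.7%) and 69.1% on the vehicle side (63.9% to 74.0%). The difference between populations was not tested.

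**Figure D3:**
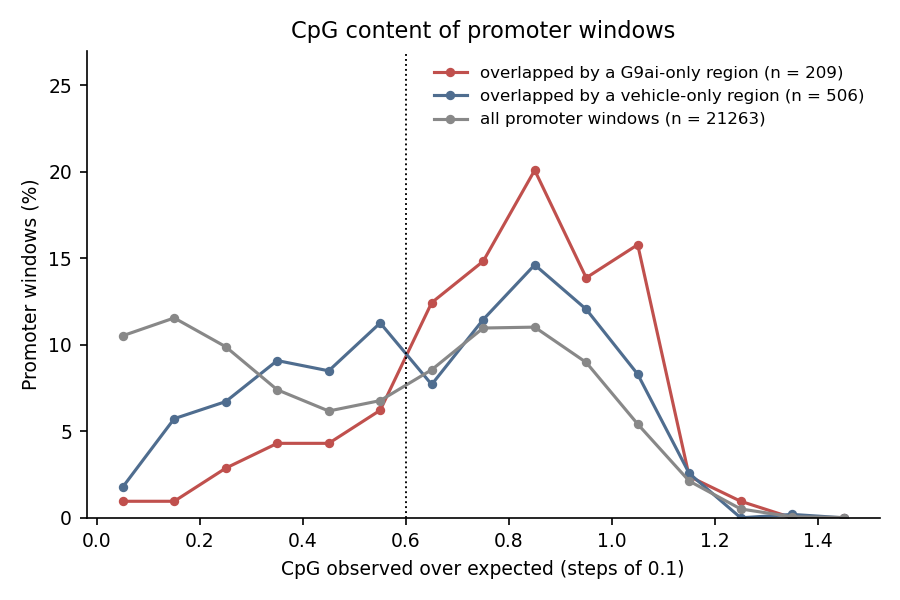
Ratio of observed to expected CpG in steps of 0.1 (x axis) and percent of promoter windows (y axis) for windows overlapped by a G9ai-only region (red), by a vehicle-only region (blue) and for all windows (grey); the dotted line is 0.6. The red line lies mostly right of 0.6 (80.4% of windows), the blue line is split around it (56.9% at or above).

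The SP letters, a GC-rich motif, were more common on the G9ai side, and GC content itself was higher there. The SP letters were in 70.3% of G9ai-side windows (exact 95% interval 63.6% to 76.4%), 56.3% of vehicle-side windows (51.9% to 60.7%) and 46.2% of all windows. The ETS letters were in 13.4% of G9ai-side windows (9.09% to 18.8%), 8.89% of vehicle-side windows (6.56% to 11.7%) and 11.6% of all. The E-box letters were in 13.9% of G9ai-side windows (9.49% to 19.3%), 11.5% of vehicle-side windows (8.82% to 14.6%) and 7.84% of all. For both motifs the intervals of the sides overlap. NF-Y and TATA letters were rarer in members than in promoters at large. NF-Y letters were in 26.3% of G9ai-side windows and 26.7% of vehicle-side windows, against 38.2% of all, and TATA letters in 6.22% of G9ai-side windows and 9.29% of vehicle-side windows, against 12.6% of all. The CRE letters were in 2 G9ai-side windows (0.957%, 0.116% to 3.41%) and 19 vehicle-side windows (3.75%, 2.28% to 5.80%), against 2.23% of all. These intervals overlap as well, and the overlapping windows of Abce1 and Anapc10 count the same CRE match. The other motifs were in few windows of either side. NRF1 letters were in 2.39% of G9ai-side windows, 2.17% of vehicle-side windows and 2.35% of all, and AP-1 letters in 5.74% of G9ai-side windows, 6.32% of vehicle-side windows and 6.99% of all. YY1 letters were in 2.87% of G9ai-side windows, 3.16% of vehicle-side windows and 1.83% of all, and FOX letters in 2.87% of G9ai-side windows, 3.95% of vehicle-side windows and 3.01% of all. RFX letters were in 1.44% of G9ai-side windows, 0.593% of vehicle-side windows and 1.23% of all. The part of GC content in these shares was not tested.

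G9ai-only regions lay at an end of 677 genes and vehicle-only regions at an end of 1978 genes. Over all 21900 protein-coding genes this is a background of 3.09% for the G9ai side and 9.03% for the vehicle side. Without the olfactory and vomeronasal receptor genes, which are silent in lung, it is 3.3% and 9.67%. With the vehicle list cut to the G9ai length the background of the vehicle side is 2.12%, from 465 genes. The G9ai side then has 689 genes, so this cut turns the order of the sides over all genes. A region can serve several genes: 78 G9ai-only and 218 vehicle-only members lay near 2 genes, and 1 G9ai-only and 3 vehicle-only members lay near 3 genes. Of 62 lists of gene function, 54 had more genes on the vehicle side, 7 had equal counts on both sides and 1, the leukocyte markers, had more on the G9ai side. The G9ai share was above its background in 36 lists and the vehicle share above its own in 43. Every list share below is to be read against the background of its own side. The lists were written, and 7 of them corrected, with results of these data known, and where more than 4 genes of a list are named for a side they were chosen after their values were seen.

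Club and goblet cell markers, genes of the secretory cells of the airway, held vehicle-only regions and no G9ai-only region. Of 42 club and goblet cell markers, 0 had a G9ai-only region at an end and 11 (26.2%) had a vehicle-only region. The backgrounds are 3.09% on the G9ai side and 9.03% on the vehicle side. At the G9ai background few of 42 genes would hold a region, so a count of 0 is near it. The 11 were Cyp2a5, Gstm1, Scgb1a1, Cyp2f2, Cyp2b10, Gsto1, Pigr, Muc5b, Muc1, Sftpd and Gsta3, of which Muc1 and Sftpd are also on the alveolar type 2 list. Scgb1a1 encodes the main secretory protein of club cells, and its vehicle-only region, chr19:9087916-9088246, overlapped an end of the gene with a score of 152, at percentile 79.0 of the vehicle list. Cyp2f2, a club cell cytochrome P450, had a region across its start (chr7:27119847-27120004) with a score of 145, at percentile 76.3. Both regions were also found in both CD24low G9ai lists. The region of Pigr, whose product carries immunoglobulin A across the epithelium, overlapped its start with a percentile of 67.2. With the vehicle list cut to the G9ai length, 3 of the 42 genes kept a vehicle-only region. Of 183 genes of defensins, mucins and other secreted airway proteins, 0 had a G9ai-only region and 7 (3.83%) a vehicle-only region. Both shares are below their backgrounds.

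Alveolar type 1 genes held vehicle-only regions above background and G9ai-only regions near it. The backgrounds are 3.09% on the G9ai side and 9.03% on the vehicle side. Of 28 markers, 1 (3.57%) had a G9ai-only region, the small heat shock gene Cryab, and 9 (32.1%) had a vehicle-only region, of which 4 were left with the cut vehicle list. The 9 were Limch1, Igfbp2, Vegfa, Gramd2, Col4a3, Col4a4, Emp2, Spock2 and Pxdc1; Col4a3 and Col4a4, which encode chains of basement membrane collagen, are divergent neighbours that share 1 region (chr1:82586794-82586954, score 131). Limch1, an actin-binding protein gene, had the highest of these, a region that overlapped a promoter window of the gene with a score of 276, at percentile 97.6. Vegfa, the endothelial growth factor that type 1 cells supply, had a region 425 bp from its start with a score of 165.

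Alveolar type 2 genes held regions on both sides, at different genes. G9ai-only regions lay at 3 of 34 markers (8.82%): Lpcat1, an enzyme of surfactant phospholipid synthesis, Cxcl15, a chemokine of the lung epithelium, and Slc34a2, the phosphate transporter of type 2 cells. The Lpcat1 region (chr13:73467064-73467741) crossed the gene start with scores of 75 in G9ai replicate 2 and 322 in replicate 3, at percentiles 35.8 and 99.2. Cxcl15 had scores of 103 in G9ai replicate 2 and 102 in replicate 3, and Slc34a2 had scores of 87 and 63. Vehicle-only regions lay at 5 markers (14.7%): Napsa, a surfactant-processing protease gene, Muc1, Nkx2-1, Sftpd and Ctsh. Nkx2-1, the transcription factor of lung identity, had its region 628 bp upstream of its start with a score of 89, at percentile 41.1. With the cut list there were 3 genes on the G9ai side, against none of the 5 on the vehicle side. The vehicle-side count was 3 within 500 bp and 8 within 2000 bp.

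Multiciliated cell markers, 42 genes, had 0 genes on the G9ai side and 4 (9.52%) on the vehicle side, close to the vehicle background, and 3 were left with the cut list. Within 2000 bp the counts were 1 gene on the G9ai side and 8 on the vehicle side. The 4 were Capsl, Tubb4b, Ccdc78 and Ccdc39. Capsl, a calcium-binding protein gene of ciliated cells, had the second highest vehicle score at a gene end, 1078, from a region across its start (chr15:9435677-9436145). The wider list of 140 axoneme and cilium assembly genes had 5 genes on the G9ai side (3.57%) and 21 on the vehicle side, above its background. Ropn1l, a radial spoke protein gene, had a vehicle score of 545 and the axonemal dynein gene Dnah3 one of 422. On the G9ai side were Spag7, Mns1, Rsph9 and the dynein genes Dnah7b and Dnah7c, neighbouring paralogs whose reads may not be placed uniquely; Spag7 had scores of 164 and 104 across its start. With the cut vehicle list the axoneme counts were 5 genes on the G9ai side and 6 on the vehicle side.

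Markers of other cell types are read against the backgrounds of 3.09% on the G9ai side and 9.03% on the vehicle side. Airway basal cell markers, 24 genes, had 2 on each side (8.33%): Aqp3 and Dlk2 with G9ai-only regions, and Icam1 and Bcam with vehicle-only regions. This share is above the G9ai background and near the vehicle background. Pan-epithelial and lung identity genes, 37, had Krt18, Klf5 and Spint1 on the G9ai side (8.11%) and Krt19, Spint2, Ovol2, Foxa1 and Nkx2-1 on the vehicle side (13.5%). The simple keratin gene Krt18 had scores of 184 and 153 with G9ai, at percentiles 95.6 and 91.6. Another keratin gene, Krt19, had a vehicle score of 229. Neuroendocrine, tuft and ionocyte markers had 0 genes on the G9ai side and 2 (6.25%) on the vehicle side, of 32. Endothelial markers had 1 gene (Ramp2; 2.78%) on the G9ai side and 3 genes (Tmem100, Vwf and Cldn5; 8.33%) on the vehicle side, of 36. Both shares are near their backgrounds. Leukocyte markers had 3 genes (Cd79a, Cd52 and Ikzf1; 5.88%) on the G9ai side and 1 (Lcp1; 1.96%) on the vehicle side, of 51. Mesenchymal and mesothelial markers had 0 on the G9ai side and 7 (18.9%) on the vehicle side, of 37: Krt19, Notch3, Vim, Pdgfra, Tagln, Gli1 and Lgr6, of which Krt19 is also a pan-epithelial gene; 2 were left with the cut list and 2 within 500 bp. The share of other cells in each library was not tested.

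**Figure D4:**
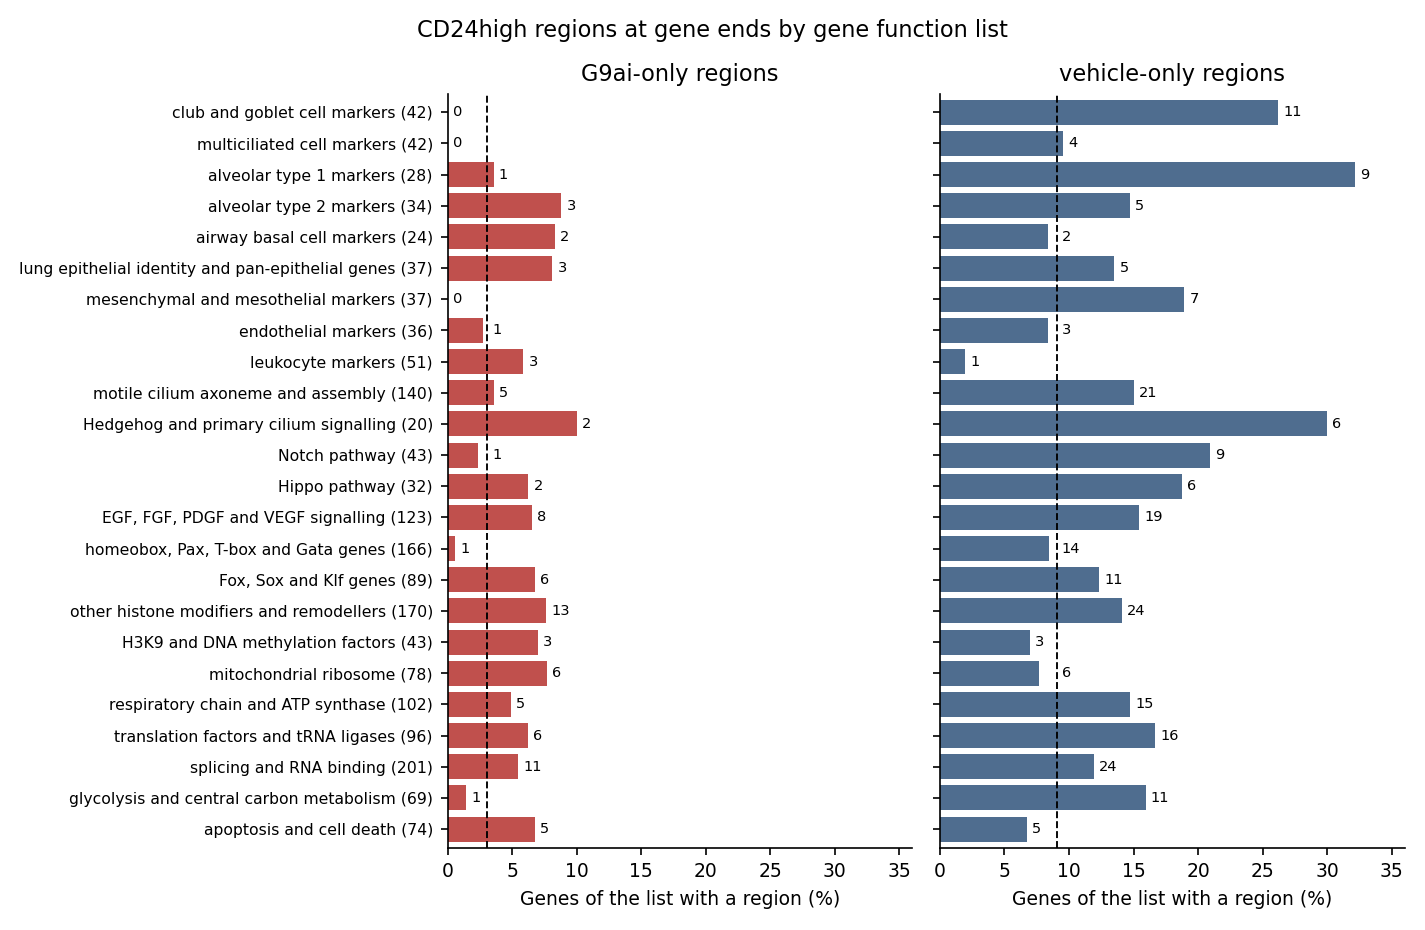
Percent of the genes of each list (list size in brackets) with a G9ai-only region (left, red) or a vehicle-only region (right, blue) at an end; numbers beside the bars are gene counts, and dashed lines are the backgrounds of 3.09% and 9.03%. Club and goblet markers (0 genes with G9ai and 11 with vehicle) and alveolar type 1 markers (1 with G9ai and 9 with vehicle) lie above the vehicle background, while the mitochondrial ribosome and cell death lists have equal counts on both sides.

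Signalling pathways that pattern the lung are read against the backgrounds of 3.09% on the G9ai side and 9.03% on the vehicle side. In the Notch pathway, which chooses between secretory and ciliated fates, 1 of 43 genes had a G9ai-only region (2.33%; Dtx3, a Deltex family gene) and 9 had a vehicle-only region (20.9%). These were the receptors Notch2 and Notch3, the ligand gene Dll3, the nuclear effector Rbpj, the co-repressor Spen, the feedback inhibitor Nrarp, the receptor fucosyltransferase Pofut1, Hes2 and Dtx4. Notch2 had its region 490 bp inside the gene start with a score of 172, and Notch3 had one 432 bp inside the gene end with a score of 163. With the cut vehicle list 2 of the 9 were left, and within 500 bp the counts were 0 genes on the G9ai side and 4 on the vehicle side. In the Hedgehog pathway, 20 genes, the ligand gene Dhh and its release factor Disp1 had G9ai-only regions across their starts (10.0%). There 6 genes had vehicle-only regions (30.0%), among them the co-receptor Cdon (score 387), the effectors Gli1 and Gli2, the ciliary GTPase Arl13b and the ligand Ihh. With the cut vehicle list 2 Hedgehog genes were on the G9ai side and 1 on the vehicle side. Over all genes that cut gave 689 on the G9ai side and 465 on the vehicle side, so the order turned there too. The Hippo list had 2 of 32 genes on the G9ai side (6.25%), Wwc2 and Vgll2, and 6 on the vehicle side (18.8%), among them the kinase Lats1 and its adaptor Mob1b.

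Growth factor receptors and ligands were on both sides. Of 123 genes of EGF, FGF, PDGF and VEGF signalling, 8 (6.50%) had a G9ai-only region and 19 (15.4%) a vehicle-only region. The backgrounds are 3.09% on the G9ai side and 9.03% on the vehicle side, so both shares were above background. Egfr had a G9ai-only region 407 bp upstream of its start (chr11:16751439-16751796), with scores of 153 and 154, at percentiles 91.0 and 91.9. Both lists placed it alike. Tgfbr1, a TGF-beta receptor, had a G9ai-only region across its start (chr4:47352891-47353755) with scores of 116 and 529, at percentiles 76.9 and 99.8. It is counted on the TGF-beta and BMP list, where 4 of 81 genes (4.94%) were on the G9ai side and 10 (12.3%) on the vehicle side. Fgfr1, an FGF receptor, had regions of both sides. The ligand genes Areg and Fgf23 were on the vehicle side, with scores of 165 and 241. The receptor-like gene Fgfrl1 was also on the vehicle side, at percentile 94.3, and the ligand gene Vegfb was on the G9ai side, at mean percentile 77.2.

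Chromatin genes were on both sides. Of 170 genes on a wider list of histone modifiers and remodellers, 13 (7.65%) had a G9ai-only region and 24 (14.1%) a vehicle-only region. With the cut vehicle list the counts were 13 on the G9ai side and 8 on the vehicle side. Over all genes that cut gave 689 on the G9ai side and 465 on the vehicle side. The acetyltransferase gene Ep300 had a G9ai-only region 661 bp upstream of its start, chr15:81585346-81585548, with scores of 200 and 172. The G9ai side also held the deacetylases Sirt1 and Hdac3, the acetyltransferase Kat6a, the methyltransferases Kmt2b and Nsd2, and the remodeller subunits Bptf, Arid1b, Smarce1 and Smarca4. On the vehicle side Asxl1, a Polycomb-linked gene, had a score of 581 across its start, Kmt2c 252, Chd2 195 and Hdac5 185. Hdac3 had regions of both sides. Of 43 H3K9 and DNA methylation factors, 3 (6.98%) were on each side; within 500 bp, and likewise with the cut vehicle list, there were 3 genes on the G9ai side against 1 on the vehicle side. The G9ai side held Cbx5, the gene of the H3K9 methyl reader HP1 alpha, the demethylase Kdm7a and the chromodomain gene Cdyl2, all 3 with regions across a gene end. Tet3, an enzyme of DNA demethylation, and the demethylase Phf2, which the wider list also holds, were among those with vehicle-only regions.

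Transcription factor families differed in their counts. Of 166 homeobox, Pax, T-box and Gata genes, 1 (0.602%), Pou6f1, had a G9ai-only region, at percentile 8.56 on average, and 14 (8.43%) had a vehicle-only region, near the vehicle background; among these were Gbx1, Dlx2, Tbx1, Pax1 and Hoxa10. With the cut list 3 vehicle genes were left. Of 89 Fox, Sox and Klf genes, 6 (6.74%) were on the G9ai side: Foxk1, Foxp1, Sox13, Klf5, Foxj2 and Klf4. Klf5 and Klf4, epithelial regulators, had regions 531 bp and 475 bp from a gene end, and Klf4 was at percentiles 38.3 and 84.2 in the 2 G9ai lists. There were 11 genes (12.4%) on the vehicle side, led by Foxc2 with a score of 429.

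Genes of mitochondrial and cytosolic protein synthesis were among the lists with a G9ai share above background. Of 78 mitochondrial ribosome genes, 6 (7.69%) had a G9ai-only region (Mrpl3, Mrpl38, Mrpl2, Mrpl14, Mrpl23 and Mrpl22) and 6 (7.69%) a vehicle-only region, of which none was left with the cut list. Mrpl2 and Mrpl3 had regions of both sides. Mrpl3 had scores of 130 and 109 across its start with G9ai. Of 96 translation factor and tRNA ligase genes, 6 (6.25%) were on the G9ai side, with Eef1b2, Eif3a and Eif3b, and 16 (16.7%) on the vehicle side, with Eif4a1 and Eif4e. Sars and Eif3b had regions of both sides. Of 201 splicing and RNA-binding genes, 11 (5.47%) were on the G9ai side, with Hnrnpa1, Hnrnpl, Snrpd1 and Snrpb, and 24 (11.9%) on the vehicle side, with Dhx33, Rbm33 and U2af2; Snrpb, U2af2, Srsf10 and Ddx25 had regions of both sides. Hnrnpa1 and Cbx5 shared 1 region between their starts, chr15:103239827-103240054, with scores of 97 and 128. The respiratory chain list, 102 genes, had 5 genes on the G9ai side (4.90%) and 15 on the vehicle side (14.7%), and Ndufb2, a complex I subunit gene, had a vehicle score of 524.

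Genes of carbon metabolism and of cell death held regions of both sides. Of 69 genes of glycolysis and central carbon metabolism, 1 (1.45%), Suclg2, had a G9ai-only region and 11 (15.9%) a vehicle-only region, among them the glycolytic genes Pkm, Pgk1, Eno2 and Pgam1; 2 were left with the cut list. Within 2000 bp of a gene end the counts were 7 genes on the G9ai side and 14 on the vehicle side. Of 74 cell death genes, 5 (6.76%) were on each side; within 500 bp the counts were 3 genes on the G9ai side and 5 on the vehicle side, and within 2000 bp 5 on the G9ai side and 10 on the vehicle side. The G9ai side had the pore-forming death effector Bax, the initiator caspase Casp8 with its regulator Cflar, the receptor adaptor Tradd and the kinase Dapk3. The vehicle side had the BH3-only gene Bad, Tnfrsf12a, the pyroptotic pore gene Gsdmd and Casp4, among others; 1 was left with the cut list. Bax had scores of 112 and 129 across its start, and Casp8 155 and 88.

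The gene ends with the highest scores differed between the sides. Fyn, a Src-family kinase, led the G9ai side with scores of 661 in replicate 2 and 889 in replicate 3, from a region across its start (chr10:39369484-39369993). Gm2a, the GM2 ganglioside activator gene, followed with scores of 473 and 557 across its start; it was named after its values were seen, because symbols that begin with Gm and a digit were left out of the ranking. The start shared by Pqbp1, a splicing regulator, and Timm17b, a subunit of the mitochondrial inner membrane translocase, had 480 and 490. Supt4a, a subunit of a transcription elongation factor, had 327 and 368. All 4 regions were in the top 1% of both lists. The co-chaperone gene Dnajc7 and Nkiras2, an inhibitor of NF-kappa-B signalling, shared a region with scores of 340 and 241, and Fbxl20, an F-box gene, had 272 and 326. Without symbols of the Gm, Rik, Olfr and Vmn kinds, the top 15 genes by mean percentile were completed by Cyb5r4, Trak1, Dhtkd1, Podxl, Spg11, Hcar2, Lrfn4 and Ep300.

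On the vehicle side Nutf2, which carries Ran into the nucleus, had the highest score, 1135, from a region across its start (chr8:105860229-105860870). The neighbours Gmppb and Ip6k1 shared a region with a score of 913, and Abce1, a ribosome recycling factor, and Anapc10, a subunit of the anaphase-promoting complex, shared the region between their starts with 836. Psmc3ip and Retreg3 shared one with 815, and Armh1 and Tmem53 one with 778. The others of the top 15, under the same exclusion, were Capsl, Asxl1, Phlda1, Prpsap2, Slc25a51 and Ropn1l. Scores of different lists have no common scale and are not compared between arms.

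Ranks of single members varied between the 2 G9ai lists. The score percentile of a G9ai-only member differed between replicates by a median of 23.0 points, and by more than 50 points in 97 of 613 regions (15.8%). Both lists placed 21 members above the 90th percentile. B2m, the MHC class I light chain gene, had scores of 384 and 60, at percentiles 99.7 and 19.5. Single scores on the vehicle side have no such check.

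Some genes had regions of both sides. There were 84 such genes, 12.4% of the G9ai-side genes and 4.25% of the vehicle-side genes, and in 61 of them the pair lay at the same end. The gap between the pair had a median of 426 bp and was at most 1000 bp in 57 genes. Stub1, a ubiquitin ligase gene, and its neighbour Rhbdl1 had the G9ai-only region at chr17:25833872-25834156 and the vehicle-only region at chr17:25833348-25833596, 276 bp apart. Nek8 and Tlcd1 had theirs 303 bp apart, and Cyp2d22 329 bp apart. In Gadd45b, a stress response gene, the G9ai-only region lay at the gene end and the vehicle-only region at the start, 2055 bp apart. A vehicle peak lay within 1000 bp of 9.62% of G9ai-only members (59), against 7.13% of G9ai-only regions elsewhere. A G9ai peak lay within 1000 bp of 3.36% of vehicle-only members (63), against 1.38% of vehicle-only regions elsewhere.

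Most members were not listed in the other populations. Of the 613 G9ai-only members, 410 (66.9%) overlapped no list of CD24low or CD24neg cells, against 73.8% of G9ai-only regions elsewhere; for vehicle-only regions it was 70.6% at gene ends and 78.0% elsewhere. G9ai-only members were found in both CD24low G9ai lists in 67 cases (10.9%) and in both CD24low vehicle lists in 44 (7.18%). In CD24neg cells 45 (7.34%) were in both G9ai lists and 79 (12.9%) in the single vehicle list. Of the 1873 vehicle-only members, 174 (9.29%) were in both CD24low G9ai lists, 88 (4.70%) in both CD24low vehicle lists, 101 (5.39%) in both CD24neg G9ai lists and 241 (12.9%) in the CD24neg vehicle list. The longer lists of each population, CD24low G9ai and CD24neg vehicle, held more members of either side. The CD24low vehicle lists held 7.18% of G9ai-only regions at gene ends (exact 95% interval 5.26% to 9.52%), against 2.91% of those elsewhere (2.23% to 3.73%). They also held 4.70% of vehicle-only regions at gene ends, against 2.90% of those elsewhere. The CD24neg G9ai lists held 7.34% of G9ai-only regions at gene ends, against 4.90% elsewhere, and the CD24low G9ai lists 10.9%, against 11.3%. Of the 10 lists, the CD24low vehicle lists had the largest shares of peaks at gene ends (24.3% and 24.6%), whose part was not tested. Peak names carry the same code in lists of the same arm and replicate number across populations, so a region found again may come from the same mice.

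**Figure D5:**
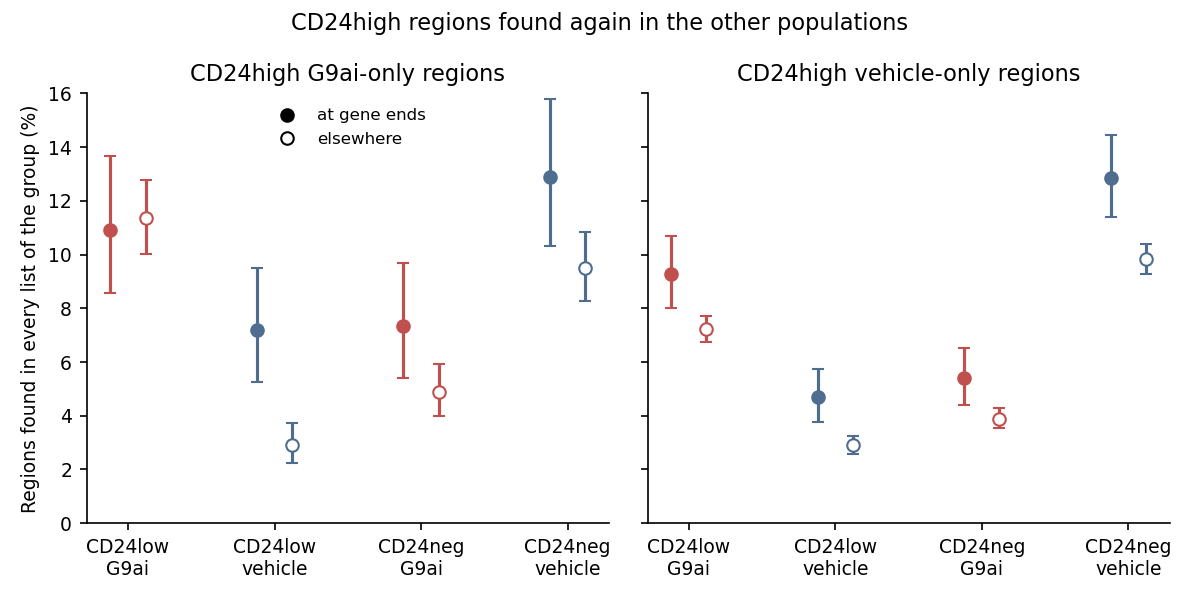
Percent of CD24high regions (y axis) found in every list of each CD24low and CD24neg group (x axis), for G9ai-only regions (left) and vehicle-only regions (right); filled points are regions at gene ends, open points regions elsewhere, red G9ai lists and blue vehicle lists, with exact 95% intervals for counting error. CD24neg vehicle is 1 list and the other groups are 2 lists each; the G9ai-only members found there are 10.9%, 7.18%, 7.34% and 12.9%, from left to right.

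A few members had the same side in all 3 populations. On the G9ai side there were 11 regions, at Uba1, the ubiquitin-activating enzyme gene, Hspb7, Fbxo11, Ppm1b, Mrpl38, Mtx3, the pair Hexa and Tmem202, the pair Fbxl8 and Tradd, Rbm47, Dis3l and Eif3b. The Uba1 region (chrX:20658258-20658507) overlapped its start with scores of 224 and 148. These 11 regions are 1.79% of G9ai-only members, against 0.582% of G9ai-only regions elsewhere. Mtx3, Eif3b and Dis3l also had a CD24high vehicle-only region at the same end, 148 bp, 177 bp and 562 bp away, and Fbxl8 also had regions of both sides. On the vehicle side 15 regions had the same side in all 3 populations, 0.801% of vehicle-only members, against 0.427% of vehicle-only regions elsewhere. Among them were those of the proteasome subunit genes Psmd1 and Psmd11, Pex13, Usp12, Ctc1, the RNA polymerase II gene Polr2a, Srsf4 and Kat2a. The opposite arm in both other populations held 10 G9ai-only members, at Nfkbia, Aqp3, Atxn1 and Smarce1 among others, and 17 vehicle-only members, among them those of Sox12, Dbi, Kdm5a and Cxcl5. These are 1.63% of G9ai-only members, against 0.436% of such regions elsewhere, and 0.908% of vehicle-only members, against 0.527% elsewhere. Names in this paragraph were chosen by these patterns after they were seen.

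Members on the sex chromosomes were counted by side. On the X chromosome lay 15 G9ai-only members (2.45%) and 69 vehicle-only members (3.68%). Among all listed peaks, 52 of 2798 and 52 of 2817 lay on X in G9ai replicates 2 and 3, and 223 of 12985 with vehicle. The share on X was thus higher among members than among all listed peaks on both sides. On the Y chromosome lay 0 G9ai-only and 4 vehicle-only members, at Ddx3y (score 234), Uty (score 237) and Eif2s3y (scores 254 and 115). The CD24high G9ai lists held 1 Y peak each anywhere on the chromosome, against 5 in the vehicle list. The sex of the mice behind each list was not used here, and its part was not tested.

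The 1000 bp limit fell within a continuous range of distances. On the G9ai side the members furthest from a gene end were at Rassf2 (985 bp), Abr (988 bp) and Lrch1 (999 bp), and the first regions outside were at Carf (1004 bp), Kbtbd11 (1008 bp) and Phf21a (1012 bp). On the vehicle side they were at Dennd5a (998 bp), Mamdc2 (998 bp) and Zfp287 (1000 bp) inside, and at Lrrfip2 (1001 bp), Irf2bp1 (1004 bp) and Tlr9 (1004 bp) outside.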

How the data were processed

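ATAC-seq peak lists of sorted mouse lung epithelial cells were used, 10 lists from 18 samples, grouped by the population and treatment in the labels; the lists of the other 8 samples were not analysed here. The submitters' processing notes name FastQC, Bowtie2, MACS2 and build mm10, without versions; the settings are not given. Peak names carry a number of their own for each list and a path with the word separate, so the calls appear to have been made per list. The authors deposited a score for each peak without stating its scale, and neither counts nor depth. Read shifting, duplicate removal and the choice of listed peaks are likewise not stated, and any of them could change which peaks are listed.

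Repeated lines (64, 83 and 162 in the CD24high lists) were dropped, peaks sharing at least 1 bp were merged, and each region was linked to gene spans of RefSeq GRCm38.p6 (21900 protein-coding genes, 17492 with a strand from the promoter windows). Python 3.11.15 with pandas 2.3.3, numpy 2.4.6 and scipy 1.17.1 was used; merging and linking were tested on simulated peaks. Intervals are exact (Clopper-Pearson, 95%) and cover counting error only. A ratio of observed to expected CpG is the CpG count times the window length over the product of C and G counts. The members, 62 gene lists (5 names unmatched) and tests were chosen with earlier results of these data known, and 7 list patterns were corrected after the symbols were seen. Genes were named by score percentile, the top 15 of each side, up to 4 for each list and side and 6 with regions of both sides, leaving out Gm, Rik, Olfr and Vmn symbols; names beyond this were chosen after their values were seen. Other window sizes, overlaps, score limits and left-out replicates were tried. Some named genes are not reported here.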

Additional observations from a re-analysis of the deposited data

Results flagged for a closer look

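The direction of the difference between arms was opposite in 2 populations, and the difference between populations was not tested. The share of peaks at gene ends, averaged over libraries as G9ai minus vehicle, was 8.253 percentage points in CD24high cells (22.8% and 22.9% with G9ai, against 14.6% with vehicle) and -7.549 points in CD24low cells (16.9% in G9ai replicate 3, against 24.3% and 24.6% with vehicle). The values of the arms did not overlap in either population, but lists of the same arm held nearly the same regions. In CD24high cells only 27 regions had a peak in 1 G9ai list alone. In CD24low cells 2500 vehicle-only regions were in both vehicle lists, which held 2558 and 2552 peaks. Close values within an arm therefore do not measure the spread between mice, and CD24high vehicle is 1 list.

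Among peaks at oriented genes, the share nearer the gene start was 5.606 points higher with G9ai in CD24high cells (85.3% and 85.5% with G9ai, against 79.8% with vehicle), while in CD24low cells the difference was -4.862 points (85.1% in G9ai replicate 3, against 89.8% in vehicle replicate 3). In both populations the higher value belonged to the arm whose lists were shorter.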

How the results depend on the processing

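The gene-end share and the share at starts were higher for G9ai-only than for vehicle-only regions under every alternative run. The gene-end share was 16.7% (G9ai-only) and 10.0% (vehicle-only) within 500 bp, and 28.1% (G9ai-only) and 20.3% (vehicle-only) within 2000 bp; by the midpoint, the vehicle-only share was 13.9%. At oriented vehicle-only regions the share at starts was 83.1% within 500 bp and 74.9% within 2000 bp. With the higher-scoring 50% of each list there were 190 G9ai-only regions at 215 genes and 960 vehicle-only regions at 1057 genes, and 88.3% of oriented G9ai-only regions lay at starts. With the vehicle list cut to the shorter G9ai list, chosen after seeing the data, 418 vehicle-only regions at 465 genes remained, fewer than the 625 G9ai-only regions at 689 genes, and 44.3% of vehicle-only midpoints at starts lay upstream. Leaving out either G9ai replicate gave 620 to 626 G9ai-only regions at 680 to 682 genes. Only 27 regions, 18 of them at gene ends, had a peak in 1 G9ai list alone, so this step could change the counts little. Of 306 counts recomputed for 17 gene lists, 245 moved by at most 1.5 times and 61 by more. No paired analysis was possible because the CD24high vehicle arm has 1 list and replicate numbers do not tie mice of the arms. The lists show no depth, so a missing peak cannot be read as closed chromatin.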
